A study of Mus musculus with 12 samples.

Results

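The genes described here encode the folding machinery of the endoplasmic reticulum (ER), the sensors that watch its load, and the machinery of ER-associated degradation (ERAD). They were followed in megakaryocytes of the mouse, the large marrow cells from which platelets are shed, after 6 h with the synthetic glucocorticoid dexamethasone at 100 nM or with its vehicle. The list named 37 genes. Of these, 35 had a probe set annotated with exactly 1 gene symbol, each had just 1 such probe set, and Manf and Pdia4 had none. The 35 are part of 30142 named genes on the array, of which 24265 were tested, all 35 among them. Cells came from bone marrow hematopoietic stem cells of male C57BL/6 mice, grown for 3 days in thrombopoietin at 100 ng/ml, then overnight in 10% serum stripped with charcoal, and megakaryocytes were purified on day 4. There were 6 cultures, each divided between both treatments, which gave 12 arrays of 1 colour. Cultures are numbered here by the replicate number in the sample titles. The culture number in the labels differs from it for all but the first. No group carried a genetic change, both received the same serum, and the labels do not say whether each culture came from a separate mouse. All values are log2 array values as deposited, and a difference is dexamethasone minus vehicle within culture. Because gene levels on an array depend on the probes, levels are compared between treatments and never between genes.

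Secreted and membrane proteins enter the ER through the Sec61 channel, are folded by BiP (Hspa5), GRP94 (Hsp90b1) and the lectins calnexin and calreticulin, and receive disulfide bonds from protein disulfide isomerases. Proteins that fail to fold are handed to ERAD, which carries them back to the cytosol for ubiquitination. The sensors ATF6, IRE1 (Ern1) and PERK (Eif2ak3) start the unfolded protein response, which raises chaperone and ERAD genes. A megakaryocyte makes large amounts of granule and surface protein for its platelets, all of which passes through this compartment.

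After 6 h of dexamethasone 7 of the 35 genes had fallen and 3 had risen, and 25 did not pass the threshold of an adjusted p under 0.05. The falls were those of the chaperones Hspa5, Hsp90b1, Hyou1 and Calr, the disulfide isomerase Pdia6, the cofactor Creld2 and the sensor Atf6. The rises were those of the ERAD genes Herpud1 and Os9 and of the BiP co-chaperone Dnajb9. The largest of these changes was 1.35-fold, in Pdia6. The falls made up 20% of the 35 genes, against 4.56% of all tested genes called lower. The rises made up 8.57%, beside the 7.39% of all tested genes called higher, and 12% of tested genes were called in either direction. Shares of all tested genes, here and below, include many genes of low signal. With the filter raised to the negative control median, 13050 genes were tested, 1237 called lower and 2190 higher. Of the list 34 remained, 8 lower and 3 higher. Against that background the excess of falls was smaller but remained, and the rises were a smaller share than among the 13050. Every vehicle array lay above every dexamethasone array for 5 of the 35, against 2.63% of tested genes, and the reverse held for 2 of the 35, against 4.1%. A gene was lower in 6 of 6 cultures for 9 of the 35, against 8.32% of tested genes, and higher in 6 of 6 for 2 of the 35, against 11.2%. The median difference over the 35 was -0.04, beside -0.01 over all tested genes. Scaling moved the balance: after quantile normalization 12 of the 35 were lower and 2 higher, and after centring on array medians 6 were lower and 3 higher. Over all genes the share of calls that were higher was 61.9% on the deposited values, against 44.9% with quantile normalization and 70.3% with centring. Of all 24265 tested genes, 1106 were called lower on the deposited values, 1738 with quantile normalization and 726 with centring. In bulk RNA from the purified cells, fewer cells of a kind and less RNA per cell cannot be told apart.

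**Figure D1:**
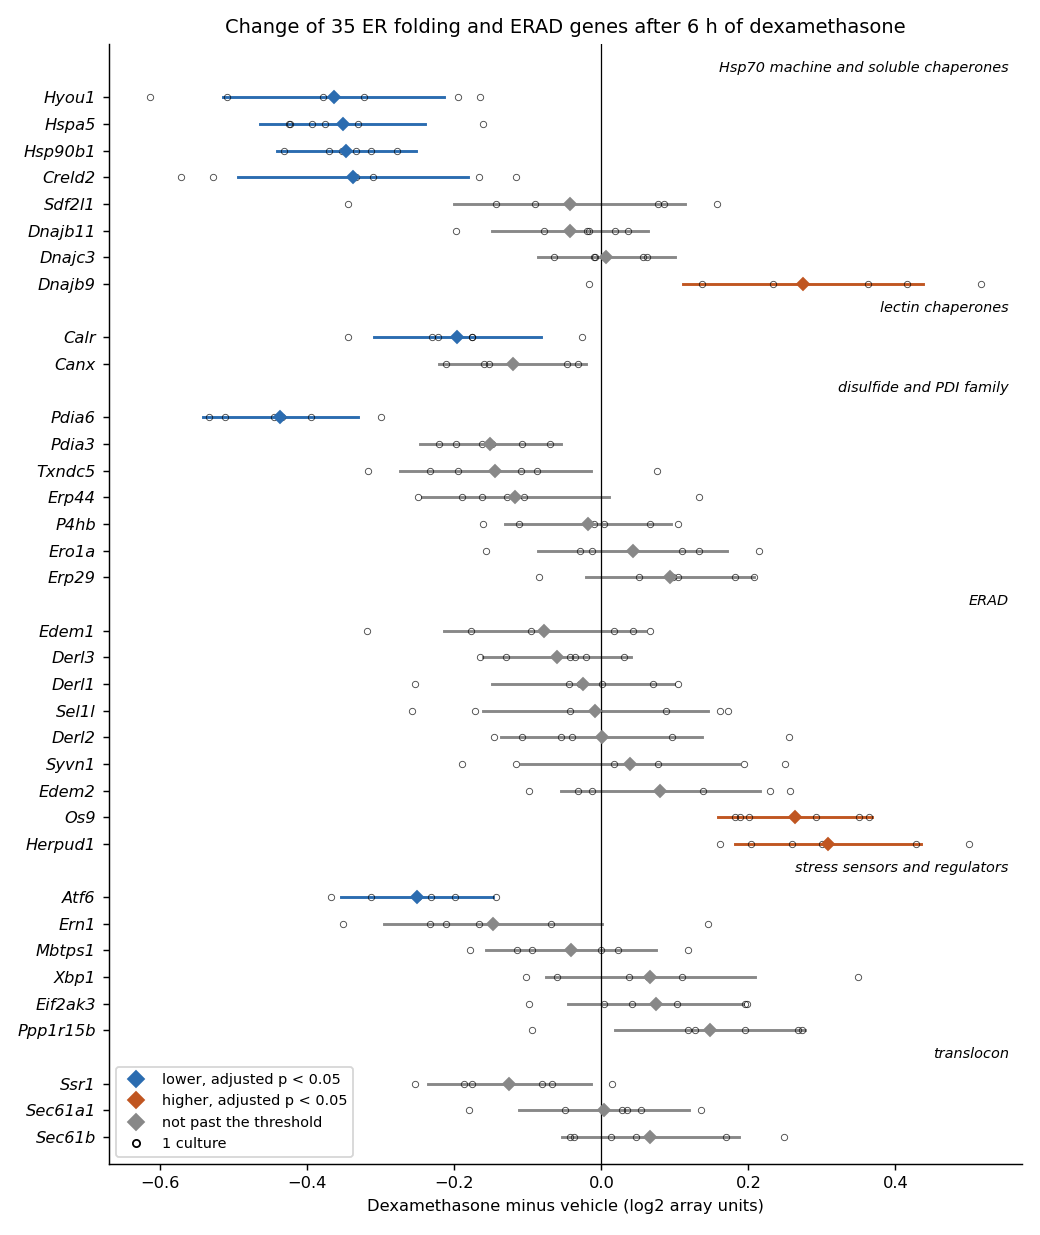
Difference between dexamethasone and vehicle (log2 array units) for each of the 35 genes, grouped by role. Diamonds are means over 6 cultures, lines are 95% intervals from the limma fit, and open circles are single cultures. Falls sit among the chaperones, Pdia6 and Atf6, and 2 of the 3 rises, Herpud1 and Os9, are ERAD genes.

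The promoter sequences of these genes are shown because many of them carry the element through which the unfolded protein response acts. The ER stress response element (ERSE) was searched as CCAAT and CCACG with 9 bases of any kind between them, and is known to be bound by NF-Y together with ATF6 or XBP1. A related form, ERSE-II, was searched as ATTGG and CCACG with 1 base between them. The UPRE searched was TGACGTGG, and the palindromic glucocorticoid receptor site was searched as GNACA and TGTNC with 3 bases between them. Both strands were read in windows of 300 bases, 250 before to 50 after each annotated start, from RefSeq (GRCm38.p6). ERSE and ERSE-II share CCACG and the letters CCAAT on 1 strand or the other, but no gene of the list held both. The table held a window for 29 of the 35 genes, and not for Hyou1, Atf6, Erp29, Derl1, Ppp1r15b and Sec61a1. The stretches below run 5′ to 3′ on the gene's strand with the motif in capitals and 25 bases on each side. In Creld2, in Calr and at the second place in Hsp90b1 the ERSE lies on the opposite strand, so that it reads from CGTGG to ATTGG. They are the ERSE genes that fell, then 3 ERSE genes that did not pass, then Herpud1, which rose and has an ERSE-II.
Hspa5 (chr2:34772000-34772068, plus strand): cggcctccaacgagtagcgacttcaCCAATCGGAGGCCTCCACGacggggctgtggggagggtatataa
Hsp90b1 (chr10:86705508-86705681, minus strand): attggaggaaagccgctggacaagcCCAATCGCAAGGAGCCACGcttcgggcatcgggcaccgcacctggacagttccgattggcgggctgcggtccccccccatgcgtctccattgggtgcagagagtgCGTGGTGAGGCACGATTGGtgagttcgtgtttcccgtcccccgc
Pdia6 (chr12:17266466-17266534, plus strand): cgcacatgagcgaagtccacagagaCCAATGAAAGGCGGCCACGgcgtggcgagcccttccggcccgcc
Creld2 (chr15:88819495-88819563, plus strand): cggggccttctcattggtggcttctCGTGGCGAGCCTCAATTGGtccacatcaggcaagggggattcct
Calr (chr8:84847050-84847118, minus strand): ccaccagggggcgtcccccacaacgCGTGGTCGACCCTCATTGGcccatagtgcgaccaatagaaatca
Canx (chr11:50325775-50325843, minus strand): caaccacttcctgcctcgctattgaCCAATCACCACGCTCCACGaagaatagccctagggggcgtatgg
Dnajc3 (chr14:118937802-118937870, plus strand): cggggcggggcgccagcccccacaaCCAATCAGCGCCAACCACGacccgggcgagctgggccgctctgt
Syvn1 (chr19:6046507-6046575, plus strand): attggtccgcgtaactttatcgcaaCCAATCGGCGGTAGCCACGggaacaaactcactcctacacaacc
Herpud1 (chr8:94386352-94386412, plus strand): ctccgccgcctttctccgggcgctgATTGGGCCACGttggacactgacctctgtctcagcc

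An ERSE was found in 9 of the 29 genes of the list with a window, or 31.0%, against 0.137% of the 27025 genes with a window in the table. The list was made up of genes of this response, so this share is not independent evidence about it. The 9 genes were Hspa5, Hsp90b1, Pdia6, Creld2, Calr, Canx, Dnajc3, Syvn1 and Derl3, and Hsp90b1 held it at 2 places. An ERSE-II was found in Herpud1 and Dnajb11 and a UPRE in Txndc5, against 0.0444% and 0.714% of all genes. The match in Dnajb11 lay 7 to 17 bases after the annotated start. Txndc5 had further windows, at other annotated starts, without the UPRE. No window of the list held the glucocorticoid receptor palindrome, which 0.537% of all genes held. This says only that these letters are not in these windows.

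Set beside the expression values, 5 of the 9 ERSE genes were called lower and none higher, with a median difference of -0.20 and a range from -0.44 to 0.04. Of the 17 genes whose windows held none of the ERSE, ERSE-II and UPRE letters, none was called lower and 2 were called higher, with a median of -0.01. Of the 3 with an ERSE-II or a UPRE, 1 was called higher. Of all 14582 tested genes with a window, 5.34% were called lower, with a median of -0.02. Over all tested genes 7.39% were called higher. Hyou1 and Atf6, the other 2 genes that fell, have no window in the table. Outside the list, 17 tested genes held an ERSE. None of these was called lower and 1, Zfp57, was called higher, with a median of -0.03 over the 17. Of the 17, 7 were under the negative control median of every array, and no change could be read for them. Another 6, Zfp57 among them, were under it on some arrays. The 4 above it throughout were Alg12, Ero1b, Hnrnpa3 and Pan2. They differed by 0.06, -0.05, -0.08 and 0.06, and none passed. Of the 9 ERSE genes of the list, 8 were above it throughout. The motif split was drawn with the expression values known, was not tested, and describes the list only.

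**Figure D2:**
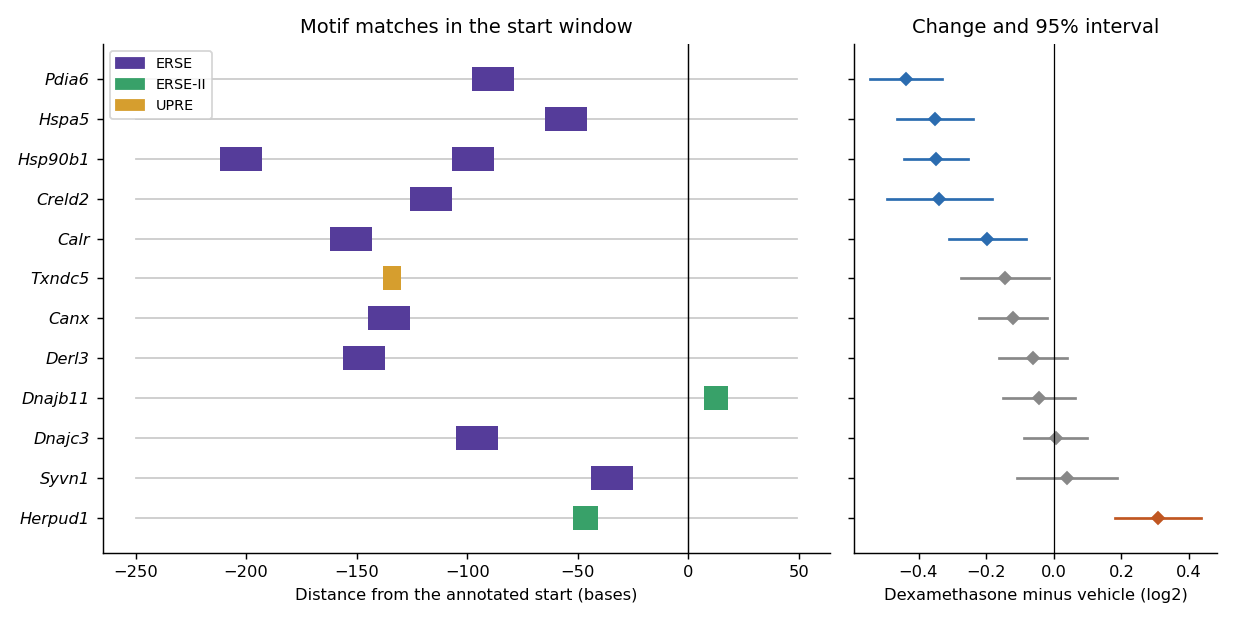
Left: position of each motif match in bases from the annotated start, one line per gene, for the 12 genes with a match. Right: the gene's difference between dexamethasone and vehicle (log2) with its 95% interval. Of the 12 genes shown, 9 hold an ERSE, among them the 5 with the lowest values. Hyou1 and Atf6, which also fell, have no window and are not shown. Herpud1 at the bottom holds an ERSE-II.

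Among the Hsp70 machine and other soluble chaperones, 4 of 8 genes fell and 1 rose, against 4.56% and 7.39% of all tested genes. Hspa5 encodes BiP, the Hsp70 of the ER lumen and the brake on all 3 sensors. On the 6 vehicle arrays Hspa5 was lowest at 13.02, with a median of 13.13 and a highest value of 13.24. On the 6 dexamethasone arrays it was lowest at 12.69, with a median of 12.75 and a highest value of 12.86. Every vehicle array was therefore above every dexamethasone array. The fall was 1.28-fold (-0.35, SE 0.05, adjusted p = 0.00204), was seen in 6 of 6 cultures and was smallest in culture 2, at -0.16.

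Hsp90b1 encodes GRP94, the Hsp90 of the ER, which folds integrins and Toll-like receptors. Its vehicle arrays ran from 16.18 through a median of 16.21 to 16.32, and its dexamethasone arrays from 15.82 through 15.85 to 16.01. The groups did not overlap. The fall was 1.27-fold (-0.35, SE 0.04, adjusted p = 0.000869), with single cultures from -0.43 to -0.28, a narrow spread.

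Hyou1 encodes the large Hsp70 relative GRP170, which exchanges the nucleotide of BiP. Its vehicle values ran from 8.23 through a median of 8.35 to 8.54 and its dexamethasone values from 7.82 through 8.05 to 8.15, without overlap. The fall was 1.29-fold (-0.36, SE 0.07, adjusted p = 0.00856) and varied more between cultures, from -0.61 in culture 1 to -0.17 in culture 2.

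Creld2, a secretory pathway protein with isomerase activity that is induced by ER stress, ran from 10.28 through 10.49 to 10.66 in vehicle and from 9.98 through 10.16 to 10.30 in dexamethasone. Here the vehicle array of culture 2 lay just below the dexamethasone array of culture 4, although all 6 cultures went down. The fall was 1.26-fold (-0.34, SE 0.07, adjusted p = 0.0141).

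Dnajb9 encodes ERdj4, a J protein that brings BiP to IRE1 and to ERAD clients. It moved against the chaperone it serves. Its vehicle arrays ran from 10.92 through 11.08 to 11.16 and its dexamethasone arrays from 11.05 through 11.34 to 11.60, with overlap. The difference was 0.27 (SE 0.07, adjusted p = 0.0406), a 1.21-fold rise in 5 of 6 cultures. It was largest in culture 2, at 0.52, and -0.02 in culture 6. The call was lost when culture 1, 2, 3, 4 or 5 was left out, with adjusted p from 0.0558 to 0.111, and without culture as a block, with an adjusted p of 0.0751.

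The remaining chaperone cofactors did not pass. The J proteins Dnajb11 (ERdj3) and Dnajc3 (p58IPK) differed by -0.04 and 0.01, and Sdf2l1, a partner of Dnajb11 in the BiP cycle, by -0.04. Their 95% intervals together ran from -0.20 to 0.11, so a fall of the size seen in Hspa5 lies outside each of them. Dnajc3 holds an ERSE in its promoter like Hspa5, as printed above.

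**Figure D3:**
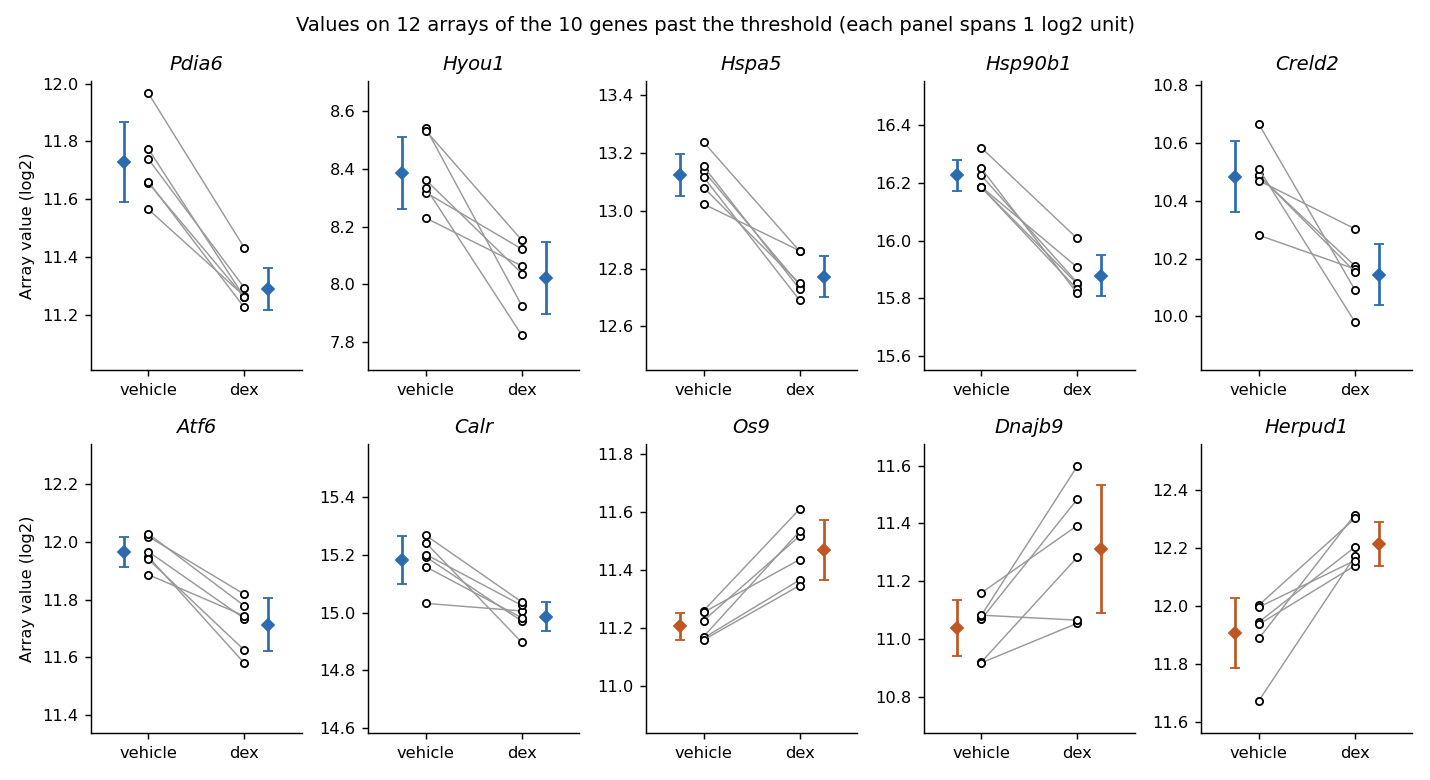
Array values (log2) of the 10 genes past the threshold, with lines joining the vehicle and dexamethasone arrays of a culture and diamonds showing mean and SD (n = 6). Each vertical axis spans 1 log2 unit and does not start at 0. Lines go down in all 6 cultures for the 7 lower genes and up in all 6 for Os9 and Herpud1, while Dnajb9 has 1 culture that does not rise.

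The lectin chaperones calreticulin and calnexin hold glycoproteins until they fold. Calr ran from 15.03 through 15.20 to 15.27 in vehicle and from 14.90 through 14.99 to 15.04 in dexamethasone, lower in 6 of 6 cultures. The groups overlapped by a small margin. Its fall was 1.15-fold (-0.20, SE 0.05, adjusted p = 0.0368) and smallest in culture 2, at -0.03. Leaving out culture 1, 3, 4, 5 or 6 ended the call, with adjusted p from 0.0836 to 0.0960, and centring on array medians ended it at 0.0975. Canx was also lower in 6 of 6 cultures, by -0.12 (SE 0.04), and did not pass (adjusted p = 0.117), although it passed after quantile normalization at 0.0129.

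Of 7 genes of disulfide formation, Pdia6 fell and 6 did not pass, where 4.56% of all tested genes were called lower and 7.39% higher. Pdia6 encodes P5, a disulfide isomerase that pairs with BiP and acts on the sensor IRE1, and its form on the cell surface takes part in platelet aggregation. Its vehicle arrays ran from 11.56 through 11.70 to 11.97 and its dexamethasone arrays from 11.23 through 11.26 to 11.43, without overlap. This was the largest change of the list, a 1.35-fold fall (-0.44, SE 0.05, adjusted p = 0.000407), with single cultures from -0.53 to -0.30.

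Pdia3 encodes ERp57, the isomerase that works with calnexin and calreticulin. It was lower in 6 of 6 cultures by -0.15 (SE 0.04) and missed the threshold at an adjusted p of 0.0509. Pdia3 passed under 5 of 16 other settings, over a range of adjusted p from 0.0138 to 0.179. The general isomerase P4hb and its oxidase Ero1a (listed as Ero1l) differed by -0.02 and 0.04, with 95% intervals from -0.13 to 0.09 and from -0.09 to 0.17. Txndc5 was 0.14 lower and Erp44, which retrieves immature proteins from the Golgi, 0.12 lower, each in 5 of 6 cultures. Erp29, a PDI relative without the catalytic cysteines, was 0.09 higher in 5 of 6. None of these passed.

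Of 9 ERAD genes, 2 rose and none fell, with a median difference of 0.00. Over all tested genes 7.39% were called higher and 4.56% lower. Herpud1 encodes a membrane protein that gathers the ubiquitin ligase complex at the ER membrane. On vehicle arrays it ran from 11.67 through 11.94 to 12.00, and on dexamethasone arrays from 12.14 through 12.19 to 12.32. Every dexamethasone array lay above every vehicle array. The rise was 1.24-fold (0.31, SE 0.06, adjusted p = 0.00837), in 6 of 6 cultures, and was largest in culture 2, where the vehicle array was the lowest of its group.

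Os9 is a lectin that reads the trimmed sugars of misfolded glycoproteins and passes them to the ligase. Its vehicle arrays kept within 11.16 to 11.26, with a median of 11.20, and its dexamethasone arrays ran from 11.35 through 11.48 to 11.61. The groups did not overlap. The rise was 1.20-fold (0.26, SE 0.05, adjusted p = 0.00724), with single cultures from 0.18 to 0.36.

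The core of the same complex did not pass. The ligase Syvn1 (HRD1) and its partner Sel1l differed by 0.04 and -0.01. The mannosidase-like Edem1 and Edem2, which mark glycoproteins for disposal, differed by -0.08 and 0.08. The derlins Derl1 and Derl2, channel proteins of the export step, differed by -0.03 and 0.00. Derl3 was under the negative control median of every array, and no change could be read for it. The 95% intervals of the 7 genes that did not pass ran from -0.21 to 0.22.

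Of the 6 sensors and regulators, Atf6 fell and 5 did not pass, beside 4.56% of all tested genes called lower and 7.39% called higher. Atf6 encodes the membrane-bound transcription factor that is cut in the Golgi and then activates ERSE genes. Its vehicle arrays ran from 11.89 through 11.96 to 12.03 and its dexamethasone arrays from 11.58 through 11.74 to 11.82, without overlap. The fall was 1.19-fold (-0.25, SE 0.05, adjusted p = 0.00863) in 6 of 6 cultures. Mbtps1, the site-1 protease that cuts it, differed by -0.04.

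Ern1 (IRE1) was lower by 0.15 in 5 of 6 cultures (adjusted p = 0.188), and Xbp1, whose mRNA IRE1 splices, was 0.07 higher (adjusted p = 0.541). A probe set over the whole gene does not separate spliced from unspliced Xbp1 unless its probes lie at the splice site, which was not examined. Eif2ak3 (PERK) was 0.07 higher, with an adjusted p of 0.409. Ppp1r15b, the constitutive subunit that dephosphorylates eIF2alpha after PERK signalling, was 0.15 higher in 5 of 6 cultures with an adjusted p of 0.137. Of the 3 translocon genes none passed, beside 12% of all tested genes that did. The channel subunits Sec61a1 and Sec61b differed by 0.00 and 0.07, and Ssr1, of the associated TRAP complex, by -0.13 (adjusted p = 0.141).

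The soluble chaperones and the ERAD genes were compared culture by culture. The median difference of the 8 soluble chaperone genes was -0.32, -0.04, -0.17, -0.13, -0.26 and -0.22 in cultures 1 to 6. That of the 9 ERAD genes was -0.03, 0.16, 0.02, 0.10, -0.01 and -0.13 in the same order. The chaperone median was thus below the ERAD median in 6 of 6 cultures. The calls given above come from these same values, so this order is not separate support, and it was not tested. Cultures also differed in level: the median over all 35 genes was 0.07 in culture 2 and 0.03 in culture 4, but between -0.15 and -0.04 in the other 4. The medians over all tested genes stayed between -0.02 and 0.01.

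Between arrays of 1 treatment the genes varied little. The median SD of the 35 genes over 6 cultures was 0.10 in vehicle and 0.08 in dexamethasone. The labels were checked with 6 known glucocorticoid targets, which all rose, with a median difference of 2.15. The 6 megakaryocyte markers measured had a mean level between 16.6 and 16.9 on every array, and 1 of them rose. Plasma cells are rich in these ER genes. Of their 8 markers, 7 were under the negative control median of every array, and Ighm was under it on 3 vehicle and 6 dexamethasone arrays. Ighm was called lower and Prdm1 higher, but Prdm1 is among the 7 and no change could be read for it. Of 7 macrophage markers none was called and 4 were under that median on every array. The 8 neutrophil markers had a mean level of 7.22 to 8.30 in vehicle and 6.65 to 8.02 in dexamethasone, and 3 of them fell. Their mean level was lower with dexamethasone in 6 of 6 cultures. Of the 6 mast cell markers tested, 2 rose, Cpa3 and Kit, with a mean level over the 7 measured of 6.05 to 6.22 in vehicle and 6.22 to 6.38 in dexamethasone, and 4 of the 7 were under the negative control median of every array. The part of these markers' cells in the changes of the ER genes was not tested.

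Further genes of the same pathways were read from 5 lists, to be set beside the 4.56% of all tested genes called lower and the 7.39% called higher. Of 30 other ER folding factors 1 fell, the membrane isomerase Tmx3, and none rose, with a median of -0.04. Tmx3 was lower by 0.23 (SE 0.06, adjusted p = 0.0270). Its call was lost without culture 1, 3, 5 or 6, at adjusted p of 0.0637 to 0.0739. Sdf2, which shares its fold with Sdf2l1, was 0.17 higher in 6 of 6 cultures and did not pass (adjusted p = 0.0567). Ppib, the ER cyclophilin, differed by 0.01.

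Of 21 other ERAD factors 3 rose and 1 fell, with a median of 0.04. Ubxn4 (erasin), which recruits the ATPase VCP to the ER, rose 1.22-fold (0.29, SE 0.04, adjusted p = 0.00287). Herpud2, the relative of Herpud1, rose by 0.21 (adjusted p = 0.0249), but the call was lost without culture 2, 3, 4 or 5 (0.0621 to 0.0804) and without the block (0.0685). The ligase Rnf139 rose by 0.18 (adjusted p = 0.0416), and leaving out each culture in turn ended that call (0.0601 to 0.116). Marchf6, a large ubiquitin ligase of the ER membrane, fell 1.30-fold (-0.37, SE 0.05, adjusted p = 0.00154).

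Of 25 genes of translocation, signal peptidase and oligosaccharyltransferase 2 fell and none rose, with a median of 0.00. Stt3a, the catalytic subunit that adds sugars during translocation, fell 1.20-fold (-0.26, SE 0.06, adjusted p = 0.0174), a call lost with all probe sets fitted (0.0828). The signal peptidase subunit Spcs2 fell by 0.24 (adjusted p = 0.0259), a call lost without culture 1, 2, 3, 5 or 6 (0.0518 to 0.0709).

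Of 17 tested genes downstream of the sensors 4 rose and 2 fell, with a median of 0.03. Ppp1r15a (GADD34), the inducible partner of Ppp1r15b, rose 1.67-fold (0.74, SE 0.07, adjusted p = 0.000154), and the sestrin Sesn2 rose 1.24-fold (0.31, adjusted p = 0.0108; 0.0581 with all probe sets fitted). Tmbim6 rose by 0.17 (adjusted p = 0.0383) and the kinase Map3k5 by 0.22 (adjusted p = 0.0452). The Tmbim6 call was lost whichever culture was left out (0.0517 to 0.116) and the Map3k5 call without culture 1, 2, 3, 4 or 5 (0.0628 to 0.122). Vldlr, a lipoprotein receptor induced by the PERK arm, fell 1.32-fold (-0.40, SE 0.05, adjusted p = 0.000622). Creb3l2, a membrane-bound relative of Atf6, fell by 0.21 (adjusted p = 0.0333), a call lost without culture 1, 3, 4, 5 or 6 (0.0769 to 0.0894). The PERK effectors Atf4 and Ddit3 (CHOP) were 0.12 and 0.14 lower and did not pass.

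Of 19 tested chaperones of the cytosol and mitochondria 5 fell and 1 rose, with a median of -0.12. The falls made up 26.3% of the 19, above the 20% of the ER list, whose median was -0.04. The mitochondrial chaperones Hspd1 (Hsp60) and Hspa9 (mortalin) fell 1.40-fold and 1.33-fold (-0.49 and -0.41, SE 0.04 each, adjusted p = 0.000137 and 0.000314). Hspa4 and the Hsp90 co-chaperone Stip1 fell by 0.28 and 0.30, with adjusted p of 0.00492 and 0.0146. With all probe sets fitted the Stip1 call was lost, at 0.0709. Hsp90aa1 fell by 0.19 (adjusted p = 0.0190), and that call was lost without culture 1, 3, 4, 5 or 6 (0.0515 to 0.0604). The small heat shock protein Hspb1 rose 1.90-fold (0.93, SE 0.08, adjusted p = 8.98e-05). After quantile normalization 10 of the 19 were called lower, beside 1738 of all 24265 tested genes under the same setting.

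**Figure D4:**
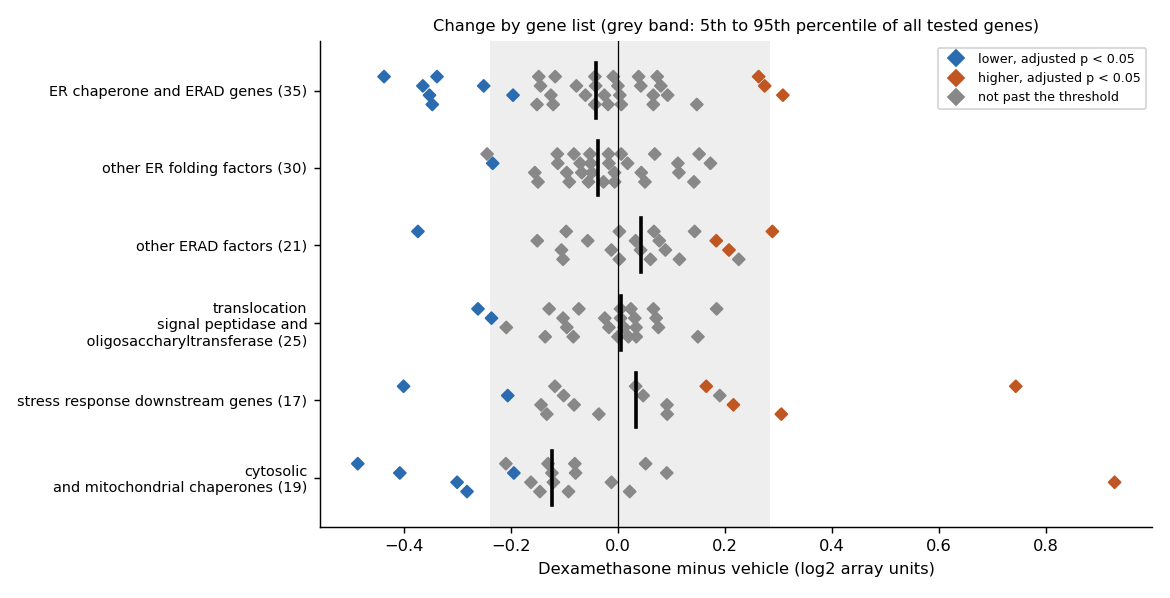
Differences between dexamethasone and vehicle (log2) for each tested gene of the ER list and of 5 related lists, with the number tested in brackets, black bars at list medians and a grey band from the 5th to the 95th percentile of all tested genes (-0.24 to 0.28). The lower calls of the ER list lie mostly outside the band, and Ppp1r15a and Hspb1 stand far to the right.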

How the data were processed

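The values are the authors' deposited log2 values of 72688 probe sets on 12 arrays. The methods of background correction and normalization were not given in the sources used here. That they are log2 was judged from their range, 2.07 to 19.93. Array medians lay within 0.10 of each other and quartiles within 0.16, so values were used as deposited. Probe sets with 1 distinct symbol (30604) were named from the platform table, with 827 symbols updated through RefSeq, and each gene took the probe set with the highest mean. Genes exceeding each array's 25th percentile on 6 or more arrays were tested. Differences were fitted with limma 3.58.1 (R 4.3.3) with culture as a block, two-sided, Benjamini-Hochberg over 24265 genes, and tested on simulated data. There the fit called 37 of 100 genes given a change of 0.3 log2 and 88 of 100 given 0.6. A gene that did not pass may therefore still have changed by about 0.3. Cultures were divided between treatments per the labels' protocols. Deviations of arrays with the same number correlated between 0.049 and 0.247. SD is over 6 arrays, intervals are 95%, and the number of arrays limits precision. Negative control probe sets had array medians of 6.15 to 6.39. Any gene of the ER list could be named, and up to 6 called genes of each related list by smallest p. Sdf2, Ppib, Atf4 and Ddit3 were added after their values were seen, as was Zfp57. The motif search was chosen after the changes had been seen, and its results carry no test. The members and lists were chosen with earlier results of these data known. The 16 alternative settings changed the normalization, the filter, the probe set rule, the block or the variance model, or left out 1 culture.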

Additional observations from a re-analysis of the deposited data

Results flagged for a closer look

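In 11 of 108 groups of 6 arrays, over 54 named genes, 1 array stood apart by a gap, relative to the group's range, above Dixon's 95% critical value. Chance alone gives about 1 group in 20. Vehicle culture 2 was low for Herpud1 (11.67, others 11.89 to 12.00) and for Xbp1 (9.70, others 9.94 to 10.05), and dexamethasone culture 2 was low for Sec61b (10.79, others 11.04 to 11.17). Dexamethasone culture 6 was low for Dnajc3 (13.27, others 13.39 to 13.46), Sesn2 (7.49, others 7.69 to 7.78) and Stip1 (11.53, others 11.89 to 12.06). Dexamethasone culture 5 was high for Pdia6 (11.43, others 11.23 to 11.29) and low for Hspb1 (8.13, others 8.43 to 8.50). Vehicle culture 4 was low for Rnf139 (8.90, others 9.09 to 9.19), vehicle culture 1 was high for Sesn2 (7.64, others 7.31 to 7.38), and dexamethasone culture 3 was low for Hspa4 (13.69, others 13.76 to 13.80). Without culture 2 the Herpud1 difference was 0.27, the lowest of its range without each culture in turn.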

How the results depend on the processing

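Of the 10 ER genes past the threshold, Hspa5, Hsp90b1, Hyou1, Pdia6, Herpud1 and Os9 kept their direction and their call under all 16 alternatives. Creld2 and Atf6 lost it when all 72688 probe sets were fitted and adjusted together (adjusted p = 0.0680 and 0.0529), and Calr and Dnajb9 under 7 and 9 alternatives. The number called lower, 7 as reported, was 12 after quantile normalization and 4 with all probe sets fitted. Beside these, 1738 of all 24265 tested genes were lower after quantile normalization, and 639 of the 72688 probe sets when all were fitted. Quantile normalization added Canx, Pdia3, Txndc5, Ern1 and Ssr1, and the cause was not tested. Leaving out 1 culture gave 6 to 7 lower, 2 to 3 higher and a median difference of -0.05 to -0.02. With no replicate block 7 were lower and 2 higher, and of the 10 only Dnajb9 lost its call, at an adjusted p of 0.0751. With culture as a random effect 8 were lower and 3 higher. No called gene changed direction. Of the uncalled, quantile normalization turned Derl2 (-0.058), Dnajc3 (-0.050), Ero1a (-0.0028), Sec61a1 (-0.046), Syvn1 (-0.016) and Xbp1 (-0.0019), and centring turned P4hb (0.0022) and Sel1l (0.012). Without 1 culture in turn, differences ran from -0.051 to 0.020 for Derl1, -0.051 to 0.029 for Derl2, -0.0047 to 0.020 for Dnajc3, -0.043 to 0.010 for P4hb, -0.083 to 0.017 for Sdf2l1, -0.023 to 0.040 for Sec61a1, -0.045 to 0.041 for Sel1l and -0.0034 to 0.084 for Syvn1. Counts of the related lists moved over 1.5 times, or to or from 0, in 54 of 160 comparisons, some by 1 gene. Signal limits Derl3, which lay under the negative control median.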
